A study of Mus musculus with 60 samples.

Results

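Genes of the cell division cycle, 42 in number, were followed in 3 tissues (lung, liver, forestomach) of male Muta Mouse animals exposed to benzo(ghi)perylene (BghiP), a polycyclic aromatic hydrocarbon. The genes were a fixed list of 42 symbols, chosen by their known place in the cycle, and they were represented by 57 probes among the 20018 symbols and 55681 probes of the array. Where a gene had several probes, the one with the highest mean tissue signal was used. The strain is transgenic and carries a bacterial reporter gene for mutation tests. All mice were about 10 weeks old, and BghiP in olive oil was given by gavage on 28 days at 6.25, 12.5 or 25 mg/kg-bw/day (groups D1, D2 and D3), whereas vehicle-treated controls received olive oil alone (D0). Each dose had 5 mice, each mouse gave all 3 tissues, and tissues were removed 72 hours after the last gavage. RNA came from sections taken at random from frozen tissue, so that the cell makeup of a sample could vary. Every one of the 60 arrays compared tissue RNA, labelled with Cy5, with a common mouse reference RNA, labelled with Cy3. A level below is the log2 ratio of tissue to reference for that gene, so that 0 equals the reference, and a difference of 1 is a 2-fold difference. Because each probe has its own reference signal, levels were compared between tissues or doses and not between genes.

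Cell division is driven by cyclins and the kinases they activate. D-type cyclins with Cdk4 or Cdk6 act in G1, cyclin E with Cdk2 at the start of S phase, and cyclins A and B with Cdk1 in G2 and mitosis, while pocket proteins and kinase inhibitors hold the cycle back. Most cells of an adult liver are quiescent, whereas the squamous epithelium of the forestomach is renewed by division of its basal layer, and the adult lung turns over slowly. E2F factors are known to switch on genes of S phase, and a complex that reads the CHR element, often near CCAAT boxes, is known to time genes of G2 and mitosis.

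Of the 42 genes, 36 were tested in lung, 31 in liver and 36 in forestomach. A gene was tested in a tissue where the tissue channel of its probe stood well above background on 5 or more of the 20 arrays. In all, 37 genes were tested in at least 1 tissue, 31 in all 3, and 23 were well above background on all 60 arrays. Cyclin E2 (Ccne2), the licensing factor Cdc6, the kinases Aurkb and Ttk, and the centromere protein Cenpf passed in no tissue. The reference RNA was well above background at the Cdc6 probe on all 60 arrays, but at the Ccne2 probe on 0 and at the Aurkb probe on 2 arrays, so that these last probes were near background in both RNAs. Probes of Cdk1 and Cdk6 were close to background in tissue RNA.

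The tissue labels were checked against marker genes. In vehicle-treated mice the 6 hepatocyte markers averaged 7.25 to 8.17 in liver, the 5 alveolar and club cell markers 6.34 to 6.81 in lung, and the 7 squamous epithelium markers 3.83 to 5.13 in forestomach. Some arrays stood apart. The lung array of mouse 20 (D3) had hepatocyte markers at 4.32 (D3 median 0.76) and glandular stomach markers at 1.56 (D3 median 0.21). Forestomach arrays of mice 10 (D1), 15 (D2) and 19 (D3) had hepatocyte markers at 4.33, 4.61 and 3.95 (medians of their groups 2.68, 2.54 and 1.07). The lung array of mouse 1 (D0) had squamous markers at 3.92 and skeletal muscle markers at 4.89, the forestomach array of mouse 2 (D0) had alveolar markers at 5.19, and glandular stomach markers (7 of 8 found) ranged from 0.29 to 7.43 over the forestomach arrays, with a D0 median of 1.15 and D1, D2 and D3 medians of 6.85, 6.15 and 4.11. The share of all probes that were bright enough to stand well above background ran from 34.9% to 58.6% in lung (median 49.7%), from 36.3% to 48.3% in liver (median 44.1%) and from 21.3% to 53.3% in forestomach (median 37.7%). Lung and forestomach arrays lay on the same 5 slides and liver arrays on 3 others, and each dose had its own position on a slide. Position and dose therefore cannot be told apart, nor can liver and slide. All lung arrays lay in row 1 of a slide and all forestomach arrays in row 2, so that row and tissue cannot be told apart between lung and forestomach.

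Promoters of members are shown because groups of these genes varied together between mice, as described further on. RefSeq promoters (assembly GRCm38.p6, 250 bases before to 50 bases after a transcript start) were matched for 34 of the 42 genes, which gave 37 promoters. Those of Ccnd1, Ccnd2, Ccne2, Ccna2, Cdc25c, Foxm1, Mcm4 and Aurkb were not in the table. The motifs searched, on both strands, were the CCAAT box (CCAAT), the CHR element (TTTGAA or its variant TTCGAA) and the E2F site (TTGGCGC, the form TTCCCGC, the form TTCGCGC and the form TTGCCGC). In 2 promoters an E2F match overlapped a CCAAT match, and in 5 promoters E2F matches overlapped each other. In the sequences, written 5′ to 3′ along the strand of the gene, capitals mark these matches, on either strand. Ccnb2 (cyclin B2), Cdc20 (activator of the anaphase-promoting complex) and Plk1 (mitotic kinase) stand for the genes of G2 and mitosis, Mcm5 and Mcm6 (subunits of the replicative helicase) for those of licensing, and Cdk4 for those of G1.
Ccnb2, chr9:70421505-70421804, minus strand: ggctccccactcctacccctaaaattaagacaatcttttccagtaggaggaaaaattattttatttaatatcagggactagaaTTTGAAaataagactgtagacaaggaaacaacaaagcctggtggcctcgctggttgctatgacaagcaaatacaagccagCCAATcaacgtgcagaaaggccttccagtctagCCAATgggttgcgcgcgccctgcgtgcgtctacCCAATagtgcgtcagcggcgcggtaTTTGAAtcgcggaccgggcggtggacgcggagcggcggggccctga
Cdc20, chr4:118437294-118437593, minus strand: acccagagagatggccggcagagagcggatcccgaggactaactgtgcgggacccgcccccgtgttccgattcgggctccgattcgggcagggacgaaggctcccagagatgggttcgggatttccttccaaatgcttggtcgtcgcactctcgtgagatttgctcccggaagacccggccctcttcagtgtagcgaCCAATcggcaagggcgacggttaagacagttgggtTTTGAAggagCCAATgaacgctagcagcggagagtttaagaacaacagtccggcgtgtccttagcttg
Plk1, chr7:122159185-122159484, plus strand: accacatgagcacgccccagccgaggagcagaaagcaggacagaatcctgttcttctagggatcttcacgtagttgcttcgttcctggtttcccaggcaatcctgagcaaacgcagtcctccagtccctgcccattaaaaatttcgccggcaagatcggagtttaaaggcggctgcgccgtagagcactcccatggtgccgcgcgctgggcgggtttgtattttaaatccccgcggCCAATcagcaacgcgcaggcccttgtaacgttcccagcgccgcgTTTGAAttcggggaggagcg
Mcm5, chr8:75109259-75109558, plus strand: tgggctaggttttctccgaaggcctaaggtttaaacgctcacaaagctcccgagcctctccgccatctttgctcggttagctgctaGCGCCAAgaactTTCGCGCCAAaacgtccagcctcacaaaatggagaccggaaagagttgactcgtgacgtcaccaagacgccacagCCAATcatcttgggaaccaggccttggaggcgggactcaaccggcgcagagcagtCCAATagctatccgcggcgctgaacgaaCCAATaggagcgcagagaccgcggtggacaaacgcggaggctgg
Mcm6, chr1:128359656-128359955, minus strand: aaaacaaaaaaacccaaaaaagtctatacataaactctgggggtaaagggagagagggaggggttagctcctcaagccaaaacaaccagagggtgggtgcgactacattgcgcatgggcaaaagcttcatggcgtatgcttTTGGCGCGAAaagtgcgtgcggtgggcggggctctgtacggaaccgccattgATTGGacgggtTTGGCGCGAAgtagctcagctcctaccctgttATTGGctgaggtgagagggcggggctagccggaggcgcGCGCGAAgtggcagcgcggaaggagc
Cdk4, chr10:127063285-127063584, plus strand: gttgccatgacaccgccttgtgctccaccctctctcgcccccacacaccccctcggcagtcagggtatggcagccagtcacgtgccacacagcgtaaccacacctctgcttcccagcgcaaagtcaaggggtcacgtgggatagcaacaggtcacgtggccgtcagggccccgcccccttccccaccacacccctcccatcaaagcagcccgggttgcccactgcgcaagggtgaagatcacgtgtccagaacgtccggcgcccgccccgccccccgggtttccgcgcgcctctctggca

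The printed promoters of Ccnb2, Cdc20 and Plk1 held CCAAT and CHR matches, those of Mcm5 and Mcm6 CCAAT and E2F matches, and that of Cdk4 none of the motifs. CCAAT stood in 28 of the 37 member promoters (75.7%), against 37.4% of the 32851 promoters in the table. CHR matches were found in 16 (43.2%, against 19.2%) and E2F matches in 14 (37.8%, against 9.57%). All 16 promoters with a CHR match also held CCAAT (43.2%, against 7.52% of all promoters with both). By role, 13 of 17 promoters of the mitotic groups (S, G2 and M phase kinases and cyclins, spindle checkpoint, chromosome and spindle proteins) held CCAAT and CHR, and 3 of the 20 others did. E2F matches were found in 8 of 10 promoters of licensing and DNA synthesis genes, and 0 of 4 promoters of G1 cyclins and kinases held a CHR or E2F match. A match describes the letters and is not evidence of binding.

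In vehicle-treated mice, the listed cell cycle genes as a group were lowest in liver, intermediate in lung and highest in forestomach. Over the 31 genes tested in all 3 tissues, the mean log2 ratio to the reference was -3.43, -2.99, -3.42, -3.24 and -3.29 in the livers of mice 1 to 5. Lungs of the same mice averaged -2.36, -2.46, -2.03, -2.32 and -2.63, and forestomachs -1.82, -1.56, -1.38, -1.84 and -1.78. The 3 tissues did not overlap. Group means were -3.27 ± 0.18 in liver, -2.36 ± 0.22 in lung and -1.67 ± 0.20 in forestomach (SD, n = 5). With the exposed mice included, the order liver, lung, forestomach held in 20 of 20 animals, with lung above liver by 0.53 to 1.39 and forestomach above lung by 0.18 to 1.07. In whole tissue, more dividing cells and more RNA per cell cannot be told apart.

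**Figure D1:**
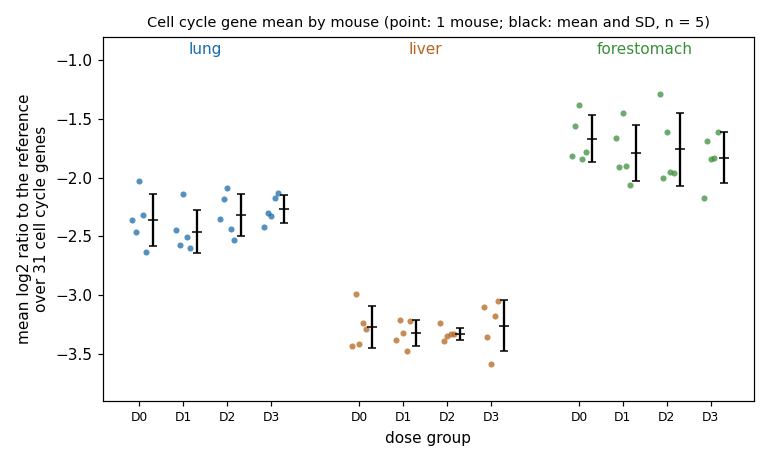
Mean log2 ratio to the common reference RNA over the 31 cell cycle genes tested in all 3 tissues (y axis) by tissue and dose group (x axis). Each point is 1 mouse, and black marks give the mean and SD of 5 mice. Within each tissue the dose groups overlap, whereas the vehicle-treated livers (mean -3.27), lungs (-2.36) and forestomachs (-1.67) are separate.

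The brightness of the arrays moved with this mean. Over the 20 arrays of a tissue, after subtraction of dose means, the mean of the 31 genes had a correlation with the share of probes well above background of -0.73 (lung), -0.57 (liver) and -0.43 (forestomach), so that dimmer arrays had means closer to the reference. With the deposited ratios these correlations were stronger, at -0.81, -0.68 and -0.64. With the background-subtracted processed signals they were -0.14, -0.12 and 0.19, and the tissue order was the same (-3.77 in liver, -2.80 in lung and -2.04 in forestomach of D0 mice). In the 4 mice whose lung arrays were brightest (mice 5, 10, 15 and 20, at 57.9% to 58.6% in lung and 49.4% to 53.3% in forestomach), the forestomach mean lay 0.85, 0.54, 0.57 and 0.53 above the lung mean. The part of brightness in the tissue differences was not tested further.

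Each gene was then tested between tissues among the vehicle-treated mice. With limma, Benjamini-Hochberg adjustment over 33255 probes and a minimum difference of 1.5-fold, 17 of the 37 tested genes were higher in lung than in liver and 0 were lower (44.4% of all probes were called, 25.4% higher and 19% lower). Between forestomach and lung, 24 were higher in forestomach and 3 lower (33.3% of all probes called, 14.5% higher and 18.8% lower). Between forestomach and liver, 32 were higher in forestomach and 0 lower (39.2% of all probes called, 21% higher and 18.2% lower). The median difference of the 37 genes was 0.58, 0.83 and 1.5 on the log2 scale, and that of all probes 0.06, -0.02 and 0.02. Of the 37 genes, 6 did not pass the background filter in liver (Cdk1, Cdk6, Cdc25c, Bub1, Bub1b and Kif11), and Cdc25c passed in forestomach alone. Over the 31 genes that passed in every tissue, 17 were higher and 0 lower in lung than liver, 20 higher and 3 lower in forestomach than lung, and 28 higher and 0 lower in forestomach than liver. The 3 comparisons share arrays and are not independent of each other. With mouse as a block, since all 3 tissues came from each animal, the counts of members were again 17, 27 and 32 (44.6%, 33.6% and 39.5% of all probes called; 25.6%, 14.7% and 21.2% higher and 19.1%, 18.9% and 18.3% lower).

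**Figure D2:**
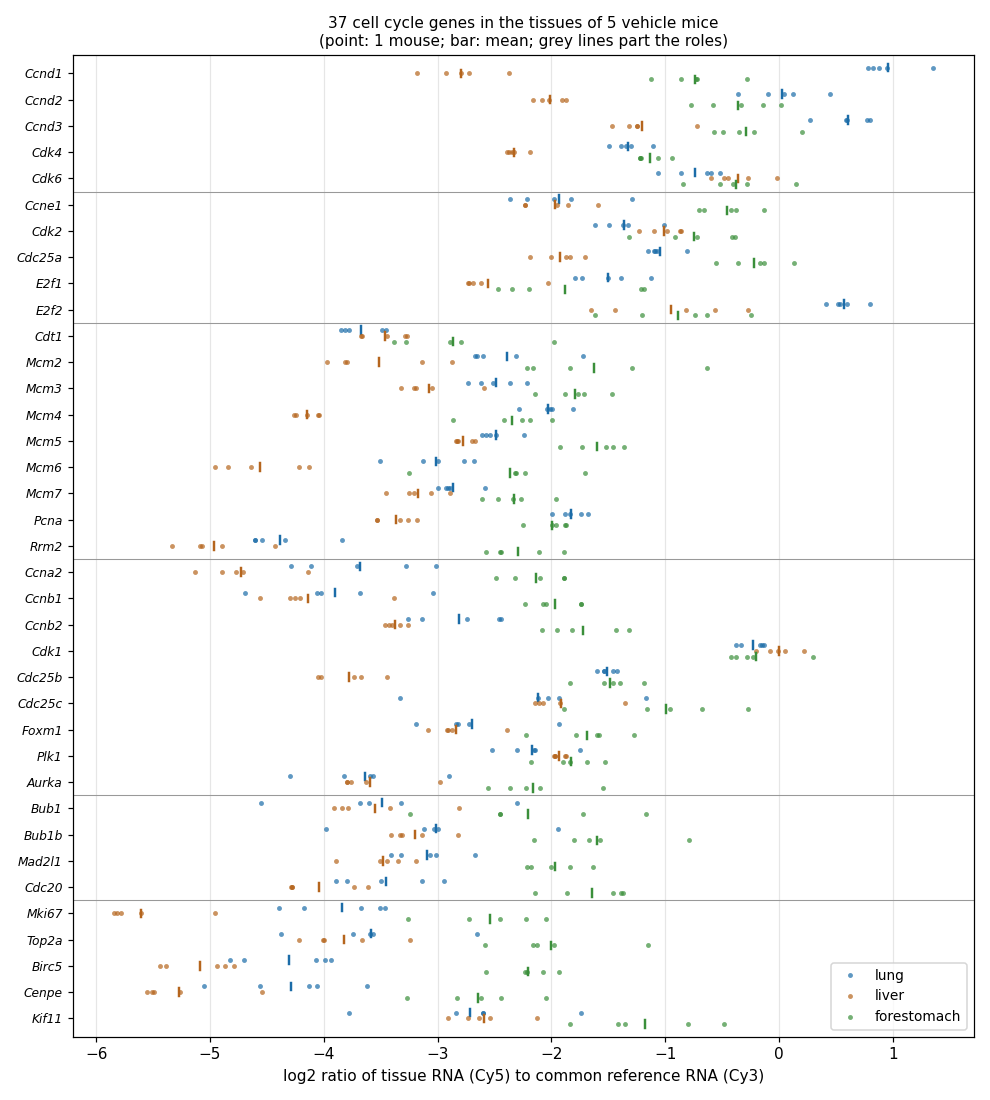
Log2 ratio to the common reference RNA (x axis) of the 37 tested cell cycle genes (y axis, grouped by role between grey lines) in lung, liver and forestomach of the 5 vehicle-treated mice. Points are mice and bars are means. Most genes are lowest in liver and highest in forestomach, whereas the D-type cyclins and E2f2 have their highest means in lung.

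Among G1 cyclins and kinases, the D-type cyclins had their highest means in lung. Ccnd1 encodes cyclin D1, which links growth signals to the cycle. It measured 0.78, 0.88, 0.95, 1.35 and 0.83 in the lungs of mice 1 to 5, -2.93, -2.37, -2.79, -2.72 and -3.18 in the livers, and -1.12, -0.28, -0.72, -0.73 and -0.86 in the forestomachs. The 3 tissues did not overlap, with lung highest and liver lowest. Lung was above liver by 3.76 ± 0.15 (SE; 13.5-fold, adjusted p = 1.96e-28), and forestomach below lung by a log2 difference of -1.70 ± 0.15 (3.25-fold, adjusted p = 7.11e-14). The difference between lung and liver was the largest of any member.

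Cyclin D3 (Ccnd3) followed the same order, at 0.61 ± 0.21 in lung, -0.28 ± 0.30 in forestomach and -1.20 ± 0.28 in liver (SD, n = 5), with lung above liver by 1.81 ± 0.13 (SE). Cyclin D2 (Ccnd2) was also lowest in liver, at -2.01 ± 0.12, and lung was above it by 2.04 ± 0.15. Its lung values (-0.36 to 0.45) overlapped those of forestomach (-0.77 to 0.02), and the difference of -0.39 ± 0.15 was below 1.5-fold. Cdk4, the kinase partner of these cyclins, was at -2.33 ± 0.08 in liver, -1.32 ± 0.14 in lung and -1.13 ± 0.12 in forestomach. Both extra-hepatic tissues were called above liver (differences of 1.00 and 1.20), and they differed from each other by 0.20 ± 0.08. Of the other Cdk4 probes, one gave 0.41 between lung and liver, not called, and 0.72 between forestomach and lung, called, so that these calls depended on the probe. Cdk6 was well above background in 1 of the 15 vehicle arrays and was called in no comparison.

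Among genes of S phase entry, lung and forestomach also took different places. Ccne1, the cyclin that activates Cdk2, was at -1.93 ± 0.41 in lung and -1.97 ± 0.27 in liver, which overlapped, and at -0.46 ± 0.23 in forestomach. All 5 forestomachs (-0.70 to -0.13) were above all lungs (-2.36 to -1.29), by a mean of 1.47 ± 0.20 (SE; adjusted p = 1.54e-08). E2f1, an activator of S phase genes, was called higher in lung (-1.5 ± 0.27) than in liver (-2.56 ± 0.30), and forestomach ranged from -2.47 to -1.19. Forestomach was called above liver (0.67 ± 0.22, adjusted p = 0.00644) and not called against lung (-0.38 ± 0.22, adjusted p = 0.134). E2f2, a related activator, was highest in lung. Its lung values of 0.52, 0.60, 0.54, 0.41 and 0.80 lay above every liver (-1.65 to -0.27) and every forestomach (-1.62 to -0.25), and the latter tissues did not differ by the test (0.06 ± 0.22). The phosphatase Cdc25a was at -1.92 ± 0.18 in liver, -1.05 ± 0.13 in lung and -0.22 ± 0.26 in forestomach, and each pair of tissues was called. Cdk2 was called only between forestomach and lung (0.62 ± 0.15, with overlapping mice).

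Licensing and DNA synthesis genes were higher in forestomach than in liver in 9 of 9 cases, where 21% of all probes were. The MCM genes encode the subunits of the helicase that opens replication origins. Mcm6 measured -4.96, -4.22, -4.84, -4.13 and -4.64 in liver, -3.51, -3, -3.13, -2.68 and -2.77 in lung, and -3.25, -1.70, -2.23, -2.31 and -2.32 in forestomach. Lung and liver did not overlap (difference 1.54 ± 0.23 SE, adjusted p = 5.38e-08), whereas mouse 1 put forestomach inside the lung range (difference 0.66 ± 0.23, adjusted p = 0.0137). Mcm2 was at -3.52 ± 0.48, -2.39 ± 0.40 and -1.63 ± 0.67 in liver, lung and forestomach, and Mcm3 at -3.07 ± 0.29, -2.49 ± 0.21 and -1.79 ± 0.24 (SD, n = 5). For Mcm5 (0.28 ± 0.13) and Mcm7 (0.31 ± 0.15) lung and liver did not differ by the test, and forestomach was above liver by 1.17 and 0.84. Mcm4 was the exception among the helicase genes, with a difference of 2.13 ± 0.13 between lung and liver and forestomach a little below lung (-0.32 ± 0.13, not called).

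Pcna, the sliding clamp of DNA polymerase, resembled Mcm4 in its order. It measured -1.74, -1.68, -1.99, -1.88 and -1.84 in lung and -2.25, -1.96, -1.88, -1.87 and -1.99 in forestomach, which overlapped, and -3.53 to -3.18 in liver (lung minus liver 1.54 ± 0.11 SE, adjusted p = 1.08e-18). Rrm2, a subunit of the enzyme that makes deoxynucleotides, had the opposite spacing. Lung (-4.38 ± 0.32) was near liver (-4.96 ± 0.34), and forestomach (-2.29 ± 0.28) was above lung by 2.09 ± 0.24 (SE; 4.27-fold, adjusted p = 9.86e-11) and above liver by 2.67 ± 0.24. Cdt1, the loader of the helicase, was at -3.68 ± 0.19 in lung and -3.47 ± 0.20 in liver, and was called higher in forestomach (-2.86 ± 0.55).

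Genes that act from S phase to mitosis were mostly higher in forestomach. Without Cdc25c, which passed the background filter through forestomach alone, 5 of 8 were higher in forestomach than lung and 6 of 8 higher in forestomach than liver (all probes 14.5% and 21%). In lung, 2 of these 8 were higher than in liver (Ccna2 and Cdc25b), a share near the 25.4% of all probes. Ccnb1, cyclin B1 of mitotic entry, measured -3.68, -4.02, -3.04, -4.06 and -4.69 in lung and -4.30, -3.38, -4.56, -4.25 and -4.21 in liver. The forestomachs of the same mice gave -2.05, -1.74, -1.74, -2.07 and -2.23, all above both other tissues. Forestomach exceeded lung by 1.93 ± 0.24 (SE; 3.82-fold, adjusted p = 8.92e-10), while lung and liver differed by 0.24 ± 0.24. Ccnb2, whose promoter is printed above, was at -3.38 ± 0.08 in liver, -2.81 ± 0.38 in lung and -1.72 ± 0.33 in forestomach. Ccna2, cyclin A2, had forestomach above liver by 2.59 ± 0.25 and lung above liver by 1.05 ± 0.25. The transcription factor Foxm1 was at -2.84 ± 0.26, -2.70 ± 0.46 and -1.69 ± 0.35 in liver, lung and forestomach, and the kinase Aurka was at -3.59 ± 0.35, -3.64 ± 0.51 and -2.16 ± 0.38.

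Cdc25b, a phosphatase that activates mitotic kinases, did not follow this pattern. It was at -1.51 ± 0.07 in lung and -1.49 ± 0.24 in forestomach, against -3.78 ± 0.26 in liver, so that lung exceeded liver by 2.27 ± 0.14 (4.83-fold, adjusted p = 4.6e-21). Plk1 was called in no comparison, with means of -2.17 ± 0.28, -1.93 ± 0.06 and -1.83 ± 0.24 in lung, liver and forestomach. Nor was Cdk1, the kinase of mitosis, whose probe was well above background in 2 lungs, 0 livers and 1 forestomach of the vehicle-treated mice and gave -0.42 to 0.30 throughout. For probes that were not well above background on any array of a group, only a bound was given, computed from single-channel Cy5 levels against the lowest signal well above background, and open to dye bias since no dyes were swapped. On that footing Cdc25c, well above background in 1 of 5 forestomachs, was at least 1.61-fold higher in forestomach than liver (measured means -0.99 and -1.92) and at least 1.93-fold higher than in lung (-2.11). Since it was tested only because of its forestomach signal, these values are a description.

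All 4 tested spindle checkpoint and anaphase genes were called higher in forestomach than in lung and in liver (all probes 14.5% and 21%), and 0 of 4 were called between lung and liver (44.4%). Of these, Bub1 and Bub1b did not pass the background filter in liver. Cdc20 measured -2.94, -3.80, -3.14, -3.50 and -3.89 in lung, -4.29, -3.73, -4.28, -3.61 and -4.28 in liver, and -1.37, -1.86, -1.46, -2.14 and -1.39 in forestomach. Forestomach was above lung by 1.81 ± 0.26 (SE; adjusted p = 6.02e-08), with no overlap. Bub1b, a checkpoint kinase, was not well above background in any vehicle-treated liver, was so in 3 of 5 forestomachs, and was at least 2.67-fold higher in forestomach (measured means -1.59 and -3.20, adjusted p = 5.43e-06). Bub1, a related kinase measured above background in 2 of 5 forestomachs, was at least 2.34-fold higher (adjusted p = 0.00151). The checkpoint protein Mad2l1 was at -3.47 ± 0.26, -3.10 ± 0.29 and -1.97 ± 0.24 in liver, lung and forestomach; of its other probes, well above background on few arrays, neither was called between forestomach and liver (0.55 and 0.35), and only the former was called between forestomach and lung (0.64 and 0.45).

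Chromosome and spindle genes had the largest median difference of any role between forestomach and liver, at 2.63. Mki67 encodes the Ki-67 protein, a marker of cycling cells. It measured -5.84, -4.96, -5.78, -5.82 and -5.61 in the 5 livers, -3.51, -4.17, -3.46, -3.67 and -4.39 in the lungs, and -2.05, -3.26, -2.22, -2.45 and -2.72 in the forestomachs. The tissues were fully separated. Forestomach was above liver by 3.06 ± 0.26 (SE; 8.34-fold, adjusted p = 6.42e-15), lung above liver by 1.76 ± 0.26 and forestomach above lung by 1.3 ± 0.26, and the other Mki67 probe gave 2.91, 1.5 and 1.4.

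Birc5, survivin, a subunit of the chromosomal passenger complex, was at -5.09 ± 0.31 in liver, -4.30 ± 0.42 in lung and -2.20 ± 0.24 in forestomach (SD, n = 5). Its difference of 2.10 ± 0.23 between forestomach and lung was, with that of Rrm2, the largest of any member. Between lung and liver it was called at 0.78 ± 0.23, but the only other of its 3 probes that was tested gave 0.31 (adjusted p = 0.302). The kinetochore motor Cenpe was above liver by 2.63 ± 0.25 in forestomach and 0.99 ± 0.25 in lung, and forestomach was above lung by 1.64 ± 0.25. Top2a, the topoisomerase of S and M phase, was at -3.83 ± 0.38, -3.59 ± 0.62 and -2.00 ± 0.52 in liver, lung and forestomach. Kif11, a spindle motor, was well above background in 3 of 5 forestomachs and 0 livers. It was at least 2.37-fold higher in forestomach than liver, and in lung it was well above background in 2 of 5 mice. Leaving out any single mouse gave 16 (without mouse 3) to 19 (without mouse 2) calls between lung and liver, 25 (without mouse 2) to 28 (without mouse 4) between forestomach and lung, and 29 (without mouse 3) to 32 between forestomach and liver. Without mouse 1, whose lung array carried squamous and muscle markers, the counts were 17, 27 and 31, and without mouse 2, whose forestomach array carried alveolar and glandular markers, 19, 25 and 31. The forestomach array of mouse 3 also carried glandular markers (5.65, beside 6.32 in mouse 2), and without mouse 3 the counts were 16, 26 and 29.

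Other genes of the cycle were counted from lists that hold none of the 42 members. Of 38 other mitosis genes, 34 were higher and 1 lower in forestomach than lung, and 34 higher and 1 lower than in liver, whereas 9 were higher and 4 lower in lung than liver, beside 25.4% and 19% of all probes called in those directions, so that the share higher in lung was near that of all probes. The shares of all probes called higher in forestomach were 14.5% against lung and 21% against liver, and those called lower 18.8% and 18.2%. Of 25 other replication genes, 16 were higher in forestomach than lung and 0 lower, and 12 were higher and 3 lower than in liver. Between lung and liver 4 of these 25 were higher in lung and 4 lower (median difference 0.02), so that this list did not share the order of the members there. Inhibitors of the cycle were also low in liver, with 11 of 15 higher in lung and 11 of 15 higher in forestomach. Cdkn1a (p21) was above liver by 2.43 ± 0.16 in lung and by 4.29 ± 0.16 in forestomach (19.6-fold, adjusted p = 2.18e-29), and Cdkn2b (p15) was above liver by 3.74 ± 0.32 in lung. Between forestomach and lung 4 of the 15 were called, a share near the 33.3% of all probes: Cdkn1a and Rbl1 (p107) were higher by 1.85 and 0.70, and Cdkn1c (p57) and Cdkn2b lower, at -1.76 and -1.11. Of 12 other E2F and DREAM factors, 4 were higher and 3 lower in forestomach than lung. In lung 2 of them were higher and 3 lower than in liver (median difference -0.34), and in forestomach 2 were higher and 1 lower than in liver.

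Exposure to BghiP was compared with vehicle in each tissue, to ask whether 28 days of dosing had moved these genes by 72 hours after the last gavage. By limma, 0 members were called at D1, D2 or D3 in lung, liver or forestomach, and 0 probes of any gene were (0% called in each comparison, of 31022, 25893 and 25070 probes tested). At an unadjusted p under 0.05, lung had 0, 1 and 4 of 36 members at D1, D2 and D3 (all probes 2.22%, 3.4% and 4.81%), liver 0, 0 and 2 of 31 (3.03%, 4.15% and 12.1%), and forestomach 3, 1 and 1 of 36 (9.37%, 3.65% and 1.5%). These counts moved with slide and with single mice. With slide as a block they were 8, 2 and 8 in lung (9.37%, 12.3% and 15.6% of all probes; 7 of the 8 at D1 below vehicle and all 8 at D3 above), 0, 0 and 3 in liver, and 8, 4 and 3 in forestomach (18.1%, 9.44% and 6.42%). With a mouse left out, lung D1 reached 6 (without mouse 5, all below vehicle, beside 4.93% of all probes). Lung D2 and D3 reached 5 and 7 (both without mouse 3, beside 2.94% and 3.77% of all probes). Over the same fits liver D3 lay between 0 (without mouse 3 or mouse 20) and 3, and forestomach D1 between 1 (without mouse 3, 7, 9 or 10) and 8 (without mouse 8). For a slope on dose, 0 members were called at an adjusted p of 0.05 in lung (0% of probes), liver (0.239%) or forestomach (0%), and 5, 3 and 2 members had an unadjusted p under 0.05 (all probes 4.78%, 14.8% and 2.36%). The lung slope count also moved, to 7 without mouse 3 (3.92% of all probes) and to 10 with slide as a block (14.3%).

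**Figure D3:**
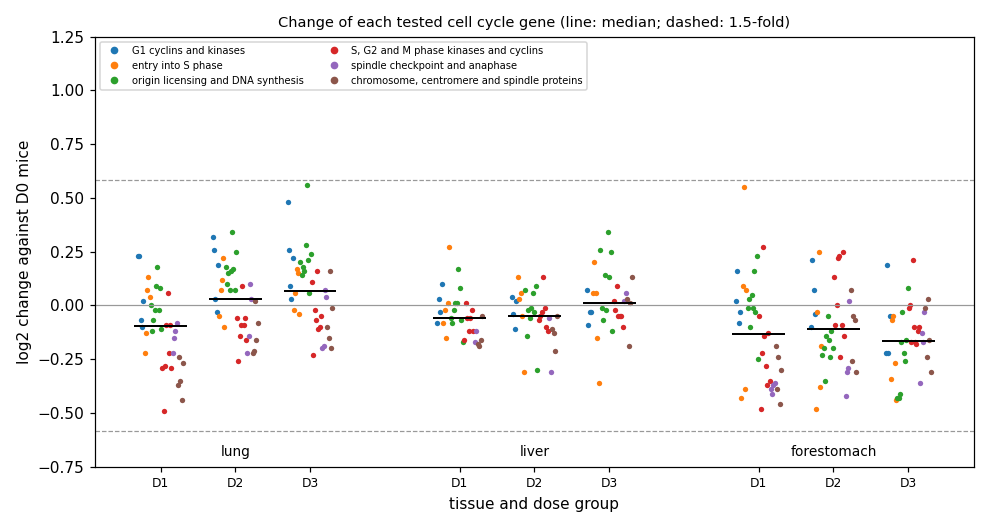
Log2 change against vehicle-treated mice (y axis) of each tested cell cycle gene at each dose in each tissue (x axis). Points are genes coloured by role, black lines are medians, and dashed lines mark 1.5-fold. No gene reaches 1.5-fold at any dose; the medians lie between -0.16 (forestomach, D3) and 0.07 (lung, D3).

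In lung at D3, G1 and licensing genes lay above vehicle, although none passed the test. All 5 G1 genes and all 9 licensing and DNA synthesis genes had D3 means above vehicle, with median changes of 0.22 and 0.20, whereas 2 of 8 S, G2 and M phase genes and 1 of 5 chromosome genes did (medians -0.06 and -0.10). S phase entry genes stood at 3 of 5 (median 0.06) and checkpoint genes at 2 of 4 (median -0.07). Of all lung probes, 52.6% lay above vehicle. With each vehicle or D3 mouse left out, and with processed signals, licensing genes stayed at 9 of 9, and G1 genes at 5 of 5 except without mouse 2 (4 of 5). Their medians moved, to 0.14 for G1 genes without mouse 5. For licensing genes the median was 0.12 without mouse 20, whose lung array carried hepatocyte markers. The values of the mitotic genes moved with these choices. Without vehicle mouse 3, whose lung array was the dimmest (34.9%), 6 of 8 S, G2 and M phase genes and 3 of 5 chromosome genes lay above vehicle, and 31 of all 36 members against 22 with it. With processed signals 3 of 8 and 3 of 5 did (chromosome median 0.21), and 26 of 36 members. Without vehicle mouse 5, 1 of 8 and 1 of 5 did (chromosome median -0.28). Ccnd1 had the smallest p of any member. It measured 0.78, 0.88, 0.95, 1.35 and 0.83 at D0, 1.27, 0.87, 1.19, 1.48 and 1.11 at D1, 1.09, 1.39, 1.40, 1.44 and 1.09 at D2, and 1.36, 1.39, 1.3, 1.55 and 1.58 at D3. Only vehicle mouse 4, at 1.35, lay within the D3 range. The change at D3 was 0.48 ± 0.12 (SE; adjusted p = 0.674 by limma), under 1.5-fold.

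Every slide of lung arrays held mice of all doses, and the difference between D3 and D0 in Ccnd1 was positive within each of the 5 slides (0.58, 0.52, 0.35, 0.20 and 0.75). With slide as a block, its slope of 0.0181 ± 0.00364 log2 units per mg/kg-bw/day was called (adjusted p = 0.0481 by limma; 0.306% of all probes were called), as the only member. Left out in turn, the 20 mice gave an adjusted p of 0.0429 to 0.134 for this slope, at or under 0.05 in 1 of 20 cases, so that the call depended on nearly every mouse. The slope itself lay between 0.0158 (without mouse 20) and 0.0202 (without mouse 18). At D3 against D0 the slide block gave an adjusted p of 0.0409 but no 1.5-fold change, and hence no call (0.0677% of probes were called). In liver the slide block called 0 members at D3 (0.0927% of probes) and 0 for the slope (2.61%), and in forestomach 0 members (0%).

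Subunits of the replicative helicase came next in lung. Mcm5 measured -2.54, -2.57, -2.24, -2.49 and -2.61 at D0 and -2.25, -2.29, -2.23, -2.10 and -2.19 at D3, a change of 0.28 ± 0.09 (SE; adjusted p = 0.897 by limma). Mcm6 ranged from -3.51 to -2.68 over the D0 mice and from -2.78 to -2.14 over the D3 mice, a change of 0.56 ± 0.20 (adjusted p = 0.897 by limma). Vehicle mouse 3 for Mcm5, and vehicle mice 4 and 5 for Mcm6, lay within the D3 range. Within slides D3 exceeded D0 by 0.01 to 0.42 for Mcm5 and by 0.35 to 0.73 for Mcm6. Mcm7 was lower at D3 on the slide of mice 3 and 18 (-0.19) and higher on the other slides (0.12 to 0.56). On the slide of mice 3 and 18 the mean of the licensing and DNA synthesis genes was also lower at D3, at -2.74 against -2.60. Neither Mcm5 nor Mcm6 passed the test. At the lower doses the members with the smallest p after Ccnd1 (0.23 ± 0.12 at D1, 0.32 ± 0.12 at D2) were Ccnb1 (-0.49 ± 0.26) and Cenpe (-0.44 ± 0.26) at D1, and Cdk6 (0.19 ± 0.11) and Mcm5 (0.16 ± 0.09) at D2. The inhibitor Cdkn1a, a p53 target, had a D3 change of 0.67 ± 0.21 in lung (adjusted p = 0.838 by limma), with 5 of 5 D3 mice above the vehicle mean.

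**Figure D4:**
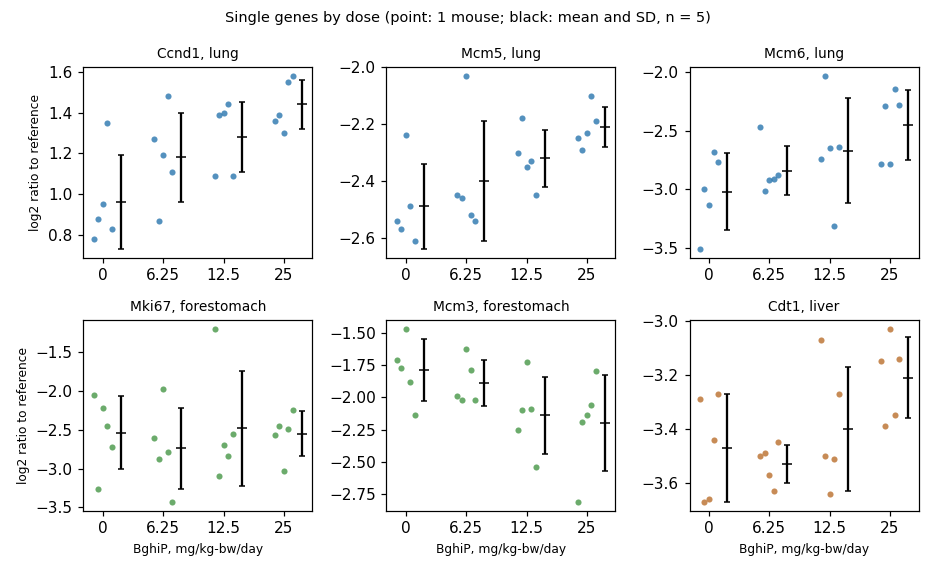
Log2 ratio to the reference (y axes, each with its own range) against BghiP dose in mg/kg-bw/day (x axes, doses evenly spaced and not to scale) for 6 gene and tissue pairs. Points are mice, and black marks give mean and SD of 5 mice. Ccnd1 in lung goes from a mean of 0.96 at D0 to 1.44 at D3, while Mki67 in forestomach has means of -2.54, -2.74, -2.48 and -2.55 from D0 to D3, with mice from -3.43 (D1) to -1.20 (D2).

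In liver, the 31 members had median changes of -0.06, -0.05 and 0.01 at D1, D2 and D3, and of 0.02, 0.04 and 0.09 without vehicle mouse 2, whose liver array was the dimmest (36.3%). At D3 the smallest p-values were those of Cdt1 (0.26 ± 0.11, adjusted p = 0.361 by limma), Pcna (0.25 ± 0.11, adjusted p = 0.364) and Mcm6 (0.34 ± 0.18, adjusted p = 0.465), genes of licensing and DNA synthesis. Pcna measured -3.26, -3.53, -3.53, -3.18 and -3.33 at D0 and -3.17, -3.26, -3.17, -3.12 and -2.87 at D3, and 4 of 5 D3 livers lay above the highest vehicle liver. Mki67, at -5.84 to -4.96 in the vehicle livers, was at -6.09 to -5.10 at D3. At D2 the members first by p were Rrm2 (-0.30 ± 0.19), Cdc20 (-0.31 ± 0.25) and E2f2 (-0.31 ± 0.25), and at D1 Mad2l1 (-0.17 ± 0.13), Cdk4 (0.10 ± 0.08) and Cdc25a (-0.15 ± 0.13), all with an adjusted p of 0.995 or 1 by limma.

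In forestomach most members were slightly below vehicle at every dose. Of 36, 10, 9 and 4 lay above vehicle at D1, D2 and D3, with medians of -0.14, -0.11 and -0.16 (all probes -0.02, 0.03 and 0.01). At D3 this depended on the signals used, since with processed signals 18 of 36 lay above vehicle (median -0.04), and without vehicle mouse 3, whose forestomach array was the dimmest (21.3%), 13 did (median -0.07). At D1 Cdc25a was above vehicle by 0.55 ± 0.19 (SE; adjusted p = 0.506 by limma), with values of 0.00, 0.73, -0.11, 0.81 and 0.24 against -0.36, -0.17, 0.13, -0.55 and -0.13 at D0. The groups overlapped, although 3 of 5 D1 mice lay above every vehicle mouse. Cdc25a was at 0.04 ± 0.28 at D2 and -0.27 ± 0.21 at D3, against -0.22 ± 0.26 at D0 (SD, n = 5). The next smallest p-values at D1 were those of Ccnb1 (-0.48 ± 0.21) and Ccne1 (-0.43 ± 0.21). The first members by p were Ccne1 (-0.48 ± 0.21), Mcm3 (-0.35 ± 0.18) and Cdk1 (0.22 ± 0.15) at D2, and Mcm3 (-0.41 ± 0.18, adjusted p = 1 by limma), E2f2 (-0.44 ± 0.22) and Ccne1 (-0.34 ± 0.21) at D3. The glandular stomach markers also differed between dose groups, as given above, and their part in these values was not tested; over the 20 forestomach arrays they correlated with the member mean at r = -0.16, dose means subtracted.

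Within slides the difference in the member mean between D3 and D0 had both signs in every tissue. It was -0.06, 0.16, -0.30, 0.15 and 0.50 on the 5 slides in lung, 0.20, -0.26 and 0.02 on the 3 liver slides, and -0.35, -0.14, -0.46, 0.01 and 0.17 in forestomach, against 0.09, 0.02 and -0.15 without regard to slide. Interaction contrasts compared the D3 changes of the tissues with each other, and 0 members were called in any pair of tissues (0% of 33255 probes). Between forestomach and lung 5 members had an unadjusted p under 0.05, all with a lower change in forestomach: Ccnd1 (-0.70 ± 0.21), Mcm3 (-0.58), Mcm6 (-0.78), Cdt1 (-0.63) and Mcm7 (-0.47), each with an adjusted p of 1 by limma. Of all 33255 probes, 684 did, and the 5 members were 2 without mouse 16, 3 without mouse 2 or mouse 19, and up to 7 (without mouse 20). Between forestomach and liver these were Pcna (-0.41 ± 0.15) and Cdt1 (-0.69 ± 0.27), beside 1416 of all probes, with 1 (without mouse 3 or mouse 16) to 5 (without mouse 20) members when a mouse was left out. Between lung and liver there were 0 members, beside 984 probes. With mouse as a block, Mcm6 (-0.55 ± 0.22) and Cdk1 (0.35 ± 0.17) joined Pcna and Cdt1 between forestomach and liver at an unadjusted p under 0.05.

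The genes also varied together from mouse to mouse. Over the 20 arrays of a tissue, with dose means subtracted, the median correlation between pairs of members was 0.33 in lung, 0.32 in liver and 0.38 in forestomach, against 0.029, 0.010 and 0.022 for all tested genes. These are descriptions, since arrays share slides and brightness. With slide means subtracted as well, the medians were 0.46, 0.35 and 0.52.

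Correlations were highest among the mitotic genes. Median correlations in lung, liver and forestomach were 0.75, 0.70 and 0.65 among chromosome and spindle genes, 0.67, 0.66 and 0.68 among S, G2 and M phase kinases and cyclins, and 0.66, 0.55 and 0.59 among checkpoint genes (a single pair in liver). Licensing genes gave 0.30, 0.12 and 0.53, S phase entry genes 0.16, 0.15 and 0.24, and G1 genes 0.06, 0.20 and 0.37. With slide means also subtracted, the lung medians lay closer together for most roles, at 0.82 (chromosome and spindle), 0.52 (kinases and cyclins), 0.45 (checkpoint), 0.38 (licensing), 0.41 (S phase entry) and 0.33 (G1), and S phase entry genes in liver were at -0.02. The promoters with CCAAT and CHR matches, such as those of Ccnb2, Cdc20 and Plk1, belonged mostly to the first 3 of these groups. There were exceptions, since in the same groups the promoters of Ccnb1 and Cenpe held no CHR match and those of Birc5 and Mad2l1, like that of Cdk4, no match at all. In lung the member mean followed Ccnb1 at r = 0.95, Cenpe at 0.94, Top2a at 0.93 and Plk1 at 0.91, but Cdk4 at -0.03, Mcm4 at -0.22 and E2f2 at -0.27. With slide means subtracted as well, Cdk4 was at -0.01, Mcm4 at 0.18 and E2f2 at 0.70, so that the value of E2f2 turned with the slides. In liver Ccna2 followed it at 0.96, and Cdt1 (-0.05) and Mcm7 (-0.02) did not. Plk1, called in no comparison of tissues, moved with the member mean within forestomach (0.89) and less closely within liver (0.56).

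**Figure D5:**
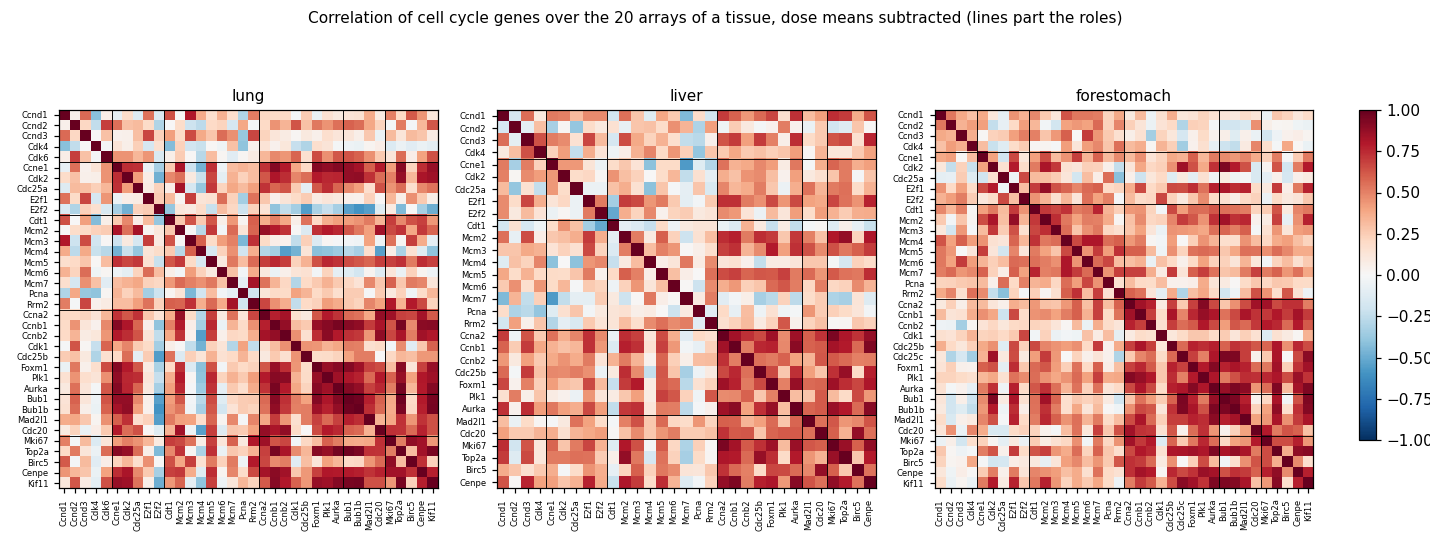
Pairwise correlation (colour scale from -1 to 1) of the tested cell cycle genes over the 20 arrays of lung, liver and forestomach after subtraction of dose means. Lines part the roles. The lower right block of mitotic genes is the darkest red in each tissue, with median correlations of 0.55 to 0.75 within its roles.

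Genes outside the list were ranked by their correlation with the member mean over the 20 arrays. The closest in lung were Kif20a (r = 0.98), a motor of cytokinesis, the cohesion factor Cdca5 (0.97), the mitotic kinase Pbk (0.95), the spindle protein Nusap1 (0.94) and the antiviral deaminase Apobec3 (0.94). In liver Cdca5 (0.93), Racgap1 (0.92), Kif20a (0.92), Cdca3 (0.91) and Shcbp1 (0.90) were closest, and in forestomach Ncaph (0.93), Kif20a (0.92), BC055324 (0.92), Asf1b (0.91) and Nek2 (0.91). With slide means also subtracted the order changed, with Kif20a (0.98), Prc1 (0.95) and Tacc3 (0.95) first in lung and the collagen gene Col3a1 (0.93) among the first 10, and Cdca5 (0.96) and the amino acid transporter Slc7a5 (0.94) first in forestomach. Marker genes of other cells moved with the member mean in liver, where B cell markers correlated at 0.70, T cell markers at 0.57, macrophage markers at 0.50, skeletal muscle markers at 0.71 and hepatocyte markers at -0.51. In vehicle livers 2 of 5 B cell markers and 4 of 8 skeletal muscle markers were well above background on no array. Both of these marker means were highest in mice 2, 10, 14 and 19 of their dose groups. The liver arrays of these mice lay on the same slide, with 36.3%, 41.3%, 38.6% and 39% of probes well above background. In forestomach T cell markers correlated with the member mean at 0.42 and B cell markers at 0.39, and in lung at -0.17 and -0.40. The mean of the 5 S phase entry genes in forestomach correlated at 0.76 with T cell markers, 0.67 with B cell markers and -0.54 with squamous markers. In vehicle forestomachs 3 of 5 B cell and 2 of 6 T cell markers were well above background on no array. Both marker means were highest in mice 2, 8, 13 and 18 of their dose groups. The forestomach arrays of these mice were dim, with 25.6%, 24.5%, 27.1% and 25.6% of probes well above background. Slide means were not subtracted from these marker correlations. The part of these cells, of slide and of brightness in the joint variation was not tested.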

How the data were processed

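Muta Mouse lung, liver and forestomach RNA was hybridized by the authors on dual-colour arrays of 62976 spots (3671 controls, left out here), with Cy5 for tissue and Cy3 for universal mouse reference RNA and no dye swap. The deposited scanner files hold median, background and processed signal intensities, and per the file headers Feature Extraction 10.7.3.1 wrote them. The deposited series matrix holds log2 ratios that the authors normalized by LOWESS from median signals with no background taken off. The same ratios were recomputed in limma 3.58.1 under R 4.3.3 (package data.table, version 1.17.8) by loess within arrays, and correlated with the deposited ones at 0.992 to 0.999 (deposited column medians -0.0413 to -0.0143). Outlier spots (0.46% of values) were set to missing, and spots of a probe were averaged. RefSeq accessions gave symbols to 47.4% of the 55681 probes.

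Groups came from the sample labels. Dose was tested in each tissue (lmFit and eBayes, 20 arrays, 4 groups), and tissues and interactions in a model of 12 groups. Probes were called at a Benjamini-Hochberg adjusted p of 0.05 or less and 1.5-fold, slopes by adjusted p alone. The study's own test (MAANOVA) was not run, and limma stood in for it. Tests were two-sided, and scripts were tested on simulated data. Mouse numbers pair the tissues of an animal per the labels; the member means of paired arrays, dose means subtracted, correlated at -0.17 (lung and liver), 0.57 (lung and forestomach, which share slides) and 0.01 (liver and forestomach).

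Members, role lists, markers and the rule for named genes (20 fixed members, the 5 largest called differences per direction between tissues, the 3 smallest p-values per dose comparison, the inhibitors, and the 5 genes most like the member mean) were chosen with earlier results of these data known. Alternatives were normexp (offset 50), processed signals, deposited ratios, Aquantile, other filters, slide and mouse blocks, trended robust variances, every probe of a gene, and leaving out each mouse. Precision is limited by having 5 arrays in a group.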

Additional observations from a re-analysis of the deposited data

Results flagged for a closer look

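Within groups of 5 mice, 236 sets of a gene, tissue and dose were searched for a mouse whose distance from the others exceeded 0.71 of the whole range, and 17 were found, where chance alone gives about 11.8. Lung D1 gave Mcm2 at -1.83, Ccnd2 at 0.47 and Ccne1 at -1.44 in mouse 8 and Mcm6 at -2.47 in mouse 6, each above the other 4 mice. Lung D3 gave Top2a at -3.40 in mouse 18. In liver, vehicle mouse 2 had the highest Mki67 (-4.96, others -5.84 to -5.61) and E2f1 (-2.03). Liver values below the other mice were Mcm3 at -3.47 and Foxm1 at -3.35 in mouse 9 (D1), E2f1 at -2.96 in mouse 12 (D2), Ccnd3 at -1.5 in mouse 18 and Ccne1 at -2.37 in mouse 17 (both D3).

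In forestomach, Cdk1 was at 0.30 in vehicle mouse 2, and Ccnd2 at 0.31 in mouse 6 (D1, others -0.37 to -0.28). Mouse 11 (D2) stood above its group in Mki67 (-1.20, others -3.09 to -2.56), Ccnb2 (-0.56, others -2.20 to -1.80) and Birc5 (-1.25, others -2.56 to -2.42). Plk1 (-0.61) and Cdc20 (-0.29) of that forestomach were also the highest of the 5 D2 mice. Its glandular stomach markers were the lowest of the D2 group, at 0.64, and their part in these values was not tested.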

How the results depend on the processing

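The 37 cell cycle genes gave 16 to 19 calls between lung and liver, 24 to 27 between forestomach and lung and 30 to 32 between forestomach and liver under normexp, deposited ratios, Aquantile, slide as a random block, and the mean over 4 doses. Processed signals gave 22 (1 of them lower in lung), 27 and 30, where 60.7%, 45.4% and 56% of all probes were called. Without a filter (42 genes; 26.3%, 19.8% and 23.2% of probes), as with every probe, 17, 28 and 32 were called, and 17, 23 and 28 among the 31 genes tested in all tissues. With only the 23 genes well above background on all 60 arrays tested, 14, 16 and 21 were called (61.3%, 46.3% and 56.3% of probes), since fewer genes were tested. With mouse as a replicate block, pairing the tissues of an animal, the counts were 17, 27 and 32 as without it, the interaction counts 0, and no count of called members changed. Against vehicle, 0 members were called at any dose under each alternative run, and the slide block alone gave a slope call in lung (1 member, Ccnd1). Over leave-one-out fits the tissue counts were 16 to 19, 25 to 28 and 29 to 32. With processed signals the member means of D0, D1, D2 and D3 were -2.80, -2.86, -2.71 and -2.66 in lung, -3.77, -3.79, -3.89 and -3.75 in liver, and -2.04, -2.13, -2.10 and -2.12 in forestomach. Over the genes well above background on all arrays, lung means were -2.25, -2.12 and -2.06 at D1, D2 and D3. Deposited ratios gave -3.45 and -3.43 in liver at D1 and D2. The cause of these shifts was not tested. Median changes with dose, which had no test, turned in sign in liver at D1 and D2 (-0.06 and -0.05, against 0.02 and 0.04 without mouse 2), in liver at D3 (0.01, between -0.06 and 0.09 over the settings) and in lung at D2 (0.03, against -0.01 without mouse 2, without mouse 5 or without a filter). Genes near background (Cdk1, Cdk6, Bub1, Bub1b, Kif11, Cdc25c) and the 5 never tested are limited by signal over background, and a gene not called is not shown to be unchanged. Dose cannot be told apart from array position on the slide, nor lung against forestomach from the row on the slide. The slide-block slope fits with each mouse left out, the within-slide differences, the lung D3 counts by role, the counts over 31 genes and those without Cdc25c were chosen after seeing the data.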

Other observations

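Outside the 42 members, Lin9, a subunit of the complex that regulates mitotic genes, had a slope on dose in liver of 0.0177 ± 0.00372 log2 units per mg/kg-bw/day (adjusted p = 0.0401 by limma; 0.239% of liver probes were called), and 0.0172 ± 0.00306 with slide as a block (adjusted p = 0.0144). Without the slide block the call was lost when mouse 3, 17, 19 or 20 was left out, since 0 liver probes were then called. With the slide block, where 2.61% of liver probes were called, slopes of Orc5 (0.0111 ± 0.00282), Smc4 (0.0123 ± 0.00315) and Spc24 (0.0132 ± 0.00351) were called in liver, and that of the inhibitor Cdkn2c (p18) in lung (0.0163 ± 0.00335, adjusted p = 0.0481 by limma). That lung fit called 95 probes, and 4, 3 and 3 without mouse 16, 17 or 19, and Cdkn2c was not followed with mice left out. None of these genes was called as a difference of a dose from vehicle.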
